A study of Mus musculus with 157 samples.

Results

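Multipotent progenitors (labelled MPP) were set against short-term haematopoietic stem cells (labelled ST.HSC) in the input and immunoprecipitated RNA of a mouse atlas of 16 blood cell types. The libraries were chosen by their labels alone: 2 input and 2 precipitated libraries of MPP and the same of ST.HSC, 8 of the 157 samples of the series. Both groups were wild-type, untreated cells, from which total RNA was taken, and the precipitated libraries came from RNA pulled down with an antibody against N6-methyladenosine (m6A), a methyl mark on adenosines of messenger RNA. Sorting gates, and the strain, age and sex of the mice, are not stated in the sources used here. A separate set of libraries, made for a comparison with Mettl3-deleted cells, held 2 wild-type MPP and 2 wild-type ST.HSC libraries of each kind, and a labelling experiment held 2 libraries of newly made RNA of each type. The labels do not say that replicates came from separate mice, so the spread between replicate libraries may be technical. Each p-value rests on that spread pooled over all cell types of the experiment fitted, not on MPP and ST.HSC alone.

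Short-term stem cells and multipotent progenitors lie next to each other near the top of the blood hierarchy. Short-term stem cells can rebuild all blood lineages for a limited time and divide rarely, while multipotent progenitors have lost most of the capacity for self-renewal, divide often and begin to transcribe genes of the myeloid and lymphoid branches. The step is followed in mice by surface proteins such as CD48, CD150 (encoded by Slamf1) and FLT3, and inside the nucleus by the loss of stem cell transcription factors and the gain of the division programme.

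Read totals of the atlas input libraries were 19189897 and 17160605 for MPP and 16656690 and 19641321 for ST.HSC, and those of the precipitated libraries were 19845425 and 17975225 for MPP and 15941024 and 15686987 for ST.HSC. Replicate input libraries correlated at 0.969 for MPP and 0.971 for ST.HSC across genes on the log2 scale. Kit, the stem cell factor receptor, and Ly6a, which encodes SCA-1, are the markers by which stem and progenitor cells are usually sorted, and both were present in all 4 input libraries. Ly6a had normalised counts of 1514 and 949 in MPP libraries against 2133 and 1676 in ST.HSC libraries. Kit had 489 and 686 in MPP against 957 and 578 in ST.HSC. In these bulk samples fewer cells of a type and less RNA per cell cannot be told apart, which holds for each level below. Normalised counts were not divided by gene length, so levels are compared between libraries for a gene and not between genes.

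Genes called in expression were mostly higher in MPP. Of 17165 genes tested, 600 (3.5%) rose in MPP and 174 (1.01%) fell at an adjusted p under 0.05 in limma, a linear model that here took its spread from all 32 atlas input libraries. Over all tested genes the lean was slightly the other way, with 45.8% above 0, both MPP libraries above both ST.HSC libraries in 22.6% and below them in 26.7%. The median log2 fold change over all tested genes was −0.04, and all fold changes are MPP over ST.HSC on the scale of log2(normalised count + 1). The counts rested on having both replicates. Without MPP replicate 1 there were 362 higher and 66 lower genes, without MPP replicate 2 there were 392 and 46, without ST.HSC replicate 1 there were 371 and 56, and without ST.HSC replicate 2 there were 377 and 38. The split leaned less to one side with some settings. DESeq2 on reads recovered from the values gave 887 higher and 521 lower. A pseudocount of 10 gave 631 and 461, and these 4 libraries fitted alone gave 724 and 594. Other settings did not reduce the lean in this way, with 738 and 223 in edgeR on recovered reads and 701 and 139 after TMM rescaling of the libraries. Immunoglobulin genes made up 98 of the 600 higher genes and none of the lower ones.

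The division programme had the largest share of higher members of the gene lists examined. Of 36 cell cycle genes tested, 29 rose in MPP (against 3.5% of all genes) and 0 fell. Their median log2 fold change was 2.19, and in 35 of the 36 both MPP libraries lay above both ST.HSC libraries (against 22.6% of all genes). The number that rose was between 23 and 26 when any 1 of the 4 libraries was left out, and 29 with edgeR on the recovered reads. The list added up to 47385 and 46300.3 normalised counts in MPP libraries and to 13774 and 15335 in ST.HSC libraries.

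The promoter windows of the 4 members with the largest fold changes are shown because many genes of late cell cycle phases are known to carry a cell cycle homology region (CHR, searched as TTTGAA) and CCAAT boxes (searched as CCAAT) near their starts. Each window runs from 250 bases before to 50 after the start listed by RefSeq on GRCm38.p6, 5′ to 3′ along the gene, and capitals mark every match of either motif on either strand. Mki67 lies on the minus strand at chr7:135716330-135716629, Kif11 on the plus strand at chr19:37376132-37376431, Top2a on the minus strand at chr11:99024140-99024439 and E2f2, the first of 2 windows listed, on the plus strand at chr4:136172024-136172323.
Mki67: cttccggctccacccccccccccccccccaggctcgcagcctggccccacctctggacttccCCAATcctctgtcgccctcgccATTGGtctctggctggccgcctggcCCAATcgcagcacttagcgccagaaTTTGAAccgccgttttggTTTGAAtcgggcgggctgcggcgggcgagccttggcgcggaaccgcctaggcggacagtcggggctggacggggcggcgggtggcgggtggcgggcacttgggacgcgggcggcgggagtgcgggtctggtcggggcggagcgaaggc
Kif11: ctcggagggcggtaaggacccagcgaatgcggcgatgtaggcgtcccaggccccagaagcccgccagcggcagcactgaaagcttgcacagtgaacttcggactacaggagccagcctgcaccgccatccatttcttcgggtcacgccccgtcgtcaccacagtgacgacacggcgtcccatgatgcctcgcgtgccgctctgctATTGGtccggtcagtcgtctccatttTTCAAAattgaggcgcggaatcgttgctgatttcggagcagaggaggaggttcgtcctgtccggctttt
Top2a: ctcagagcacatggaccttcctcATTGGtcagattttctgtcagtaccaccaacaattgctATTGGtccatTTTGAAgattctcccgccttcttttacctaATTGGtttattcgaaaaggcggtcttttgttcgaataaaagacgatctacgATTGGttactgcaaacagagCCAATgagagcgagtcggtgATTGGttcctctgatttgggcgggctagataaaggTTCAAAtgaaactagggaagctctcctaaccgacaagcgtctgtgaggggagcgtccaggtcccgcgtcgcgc
E2f2: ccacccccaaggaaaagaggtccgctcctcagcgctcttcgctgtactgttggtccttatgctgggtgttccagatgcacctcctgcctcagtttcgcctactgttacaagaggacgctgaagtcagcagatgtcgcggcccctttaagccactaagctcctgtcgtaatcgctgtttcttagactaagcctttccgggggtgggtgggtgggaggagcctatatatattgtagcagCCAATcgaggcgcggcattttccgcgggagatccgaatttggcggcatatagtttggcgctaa

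Of the 29 genes that rose, 24 had a window in the RefSeq table. TTTGAA occurred on either strand in 12 of these 24 (50%), against 13.6% of the 12116 windows of all tested genes. CCAAT occurred in 20 (83.3%), against 38.6% of all windows. Both motifs occurred in 12 windows (50%), against 5.54%. Matches of the motifs can share an end letter. TTCCCGC, a core of the binding site of E2F factors, occurred in 4 (16.7%), against 7.52%. Other forms of the E2F site were not searched, so this is not a count of all such sites. These matches describe the letters in the windows only, and were not compared with any binding data. The E2f2 window holds a CCAAT box and no TTTGAA.

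Mki67 encodes the proliferation antigen Ki-67, which coats mitotic chromosomes. It had normalised counts of 1193 and 983 in MPP libraries against 100.4 and 51.1 in ST.HSC libraries, a log2 fold change of 3.90 (SE 0.36, adjusted p = 1.29e-07 in limma). The groups were far apart, with both MPP libraries above both ST.HSC libraries. Kif11, a motor protein of the mitotic spindle, had 359 and 356 in MPP against 21.7 and 46.0 in ST.HSC (log2 fold change 3.46, SE 0.30, adjusted p = 1.11e-07). Top2a, the topoisomerase that untangles chromosomes, had 2674 and 1776 in MPP against 263 and 180.4 in ST.HSC (3.32, SE 0.30, adjusted p = 1.22e-07). E2f2, a transcription factor of the G1/S step, had 85.2 and 112 in MPP against 6.21 and 13.3 in ST.HSC (3.28, SE 0.37, adjusted p = 1.63e-06). None of these groups overlapped, and these 4 calls held when any 1 library was left out.

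Genes of mitosis and of DNA replication were both among those that rose. Cdk1, the kinase that drives entry into mitosis, had 2155 and 1269.6 in MPP against 305 and 273 in ST.HSC (log2 fold change 2.51). Its partner cyclin gene Ccnb1 had 1078 and 1243 in MPP against 241 and 241 in ST.HSC (2.26). Among genes of the S phase, Rrm2, a subunit of the enzyme that makes deoxyribonucleotides, had 580.0 and 841 in MPP against 109.7 and 128 in ST.HSC (2.55). Mcm5, part of the replicative helicase, had 2244 and 3089.6 in MPP against 823 and 1188 in ST.HSC (1.41, adjusted p = 0.0160 in limma). All 4 passed the threshold and none of their groups overlapped. Cdk1, Ccnb1 and Rrm2 kept their calls without any 1 library, and Mcm5 lost its own without MPP replicate 2 or ST.HSC replicate 1 (adjusted p = 0.221). The 7 members that did not pass were E2f1, Mcm6, Mcm7, Pcna, Cdc6, Ccne1 and Cdk2. Cdk2, the partner of cyclin E, was the member whose groups overlapped, with 589 and 1348 in MPP against 846 and 1182 in ST.HSC.

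**Figure D1:**
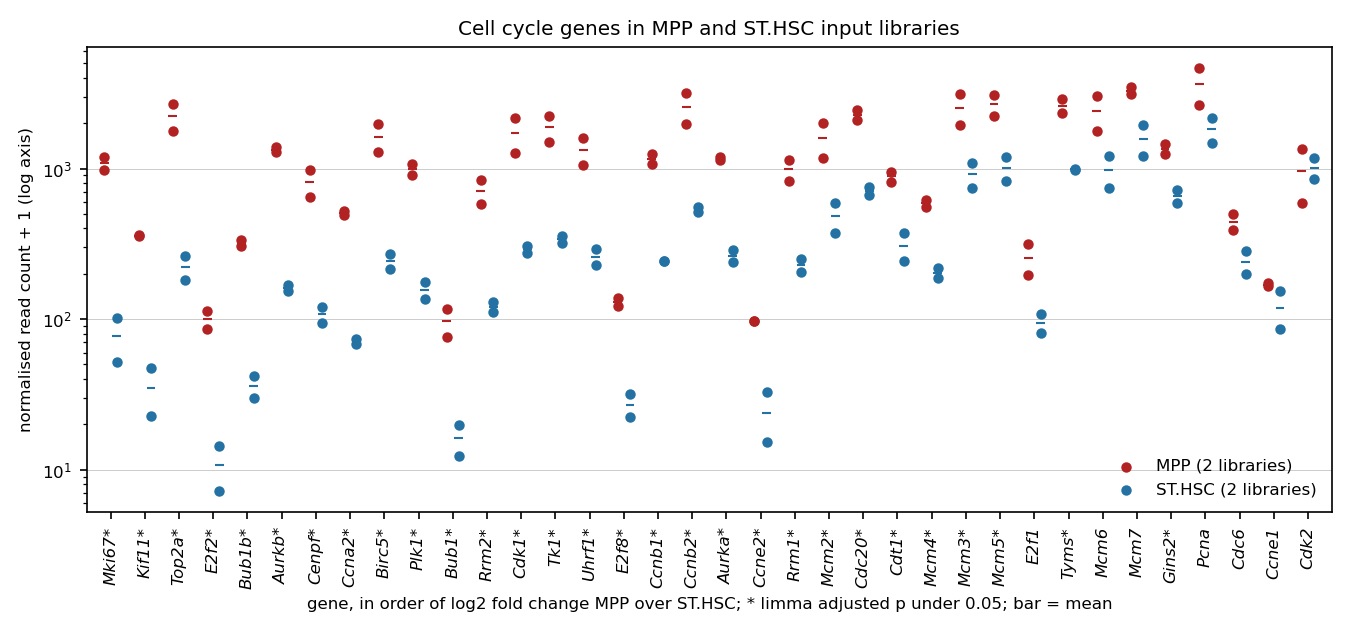
Normalised read counts plus 1 (log axis) of the 36 cell cycle genes in the 2 MPP (red) and 2 ST.HSC (blue) atlas input libraries, each point a library and each bar the mean of its group, with genes in order of log2 fold change and those past the threshold starred. The red points lie above the blue ones for 35 of the 36 genes, with Cdk2 at the right end as the exception.

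Among 14 genes for cyclin-dependent kinase inhibitors and D cyclins, Cdkn1a alone rose (against 3.5% of all genes) and 0 fell (median log2 fold change 0.31). Cdkn1a, which encodes the inhibitor p21, had 761 and 575 in MPP libraries against 105 and 191 in ST.HSC libraries (log2 fold change 2.22, SE 0.43, adjusted p = 0.00149 in limma). Its groups did not overlap, and without ST.HSC replicate 1 its adjusted p was 0.0655. Cdkn1c, the inhibitor p57 known for holding stem cells in quiescence, had 40.2 and 119 in MPP against 199.7 and 865 in ST.HSC, and did not pass (−2.57, SE 0.90, adjusted p = 0.123). Both MPP values lay below both ST.HSC values, and the ST.HSC replicates themselves were far apart. Myc, a driver of cell growth, had 2766 and 5323 in MPP against 3586 and 6957 in ST.HSC (−0.38, adjusted p = 0.805), with overlapping groups. Of 26 genes of Myc and ribosome biogenesis and of 42 genes of oxidative phosphorylation, 0 passed the threshold in either direction, with medians of 0.17 and 0.19.

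The surface genes by which these cells are usually told apart changed unevenly. Of 16 genes used in sorting gates, Cd48 and Il7r rose (against 3.5% of all genes) and Cd9 fell (against 1.01%). Cd48, an adhesion protein present on multipotent progenitors and absent from most stem cells, lies on chr1:171681245-171705258 (GRCm38.p6). It had normalised counts of 3364 and 1831 in MPP libraries against 288 and 293 in ST.HSC libraries (log2 fold change 3.09, SE 0.44, adjusted p = 4.42e-05 in limma), and the groups did not overlap. Il7r, the interleukin 7 receptor of lymphoid progenitors, had 253 and 193 in MPP against 6.73 and 5.98 in ST.HSC (4.92, SE 0.43, adjusted p = 1.11e-07). Both calls held when any 1 library was left out. Cd9, a tetraspanin used to enrich stem cells, had 799.5 and 621 in MPP against 1509.7 and 1521 in ST.HSC (−1.10, SE 0.30, adjusted p = 0.0321). Its call was lost without any 1 of the 4 libraries, with an adjusted p of up to 0.300.

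Other defining surface genes did not pass the test. Flt3, the receptor gained in lymphoid-primed progenitors, had 1509 and 1756 in MPP libraries against 905 and 748 in ST.HSC libraries (log2 fold change 0.98, SE 0.54, adjusted p = 0.448 in limma). Procr, the endothelial protein C receptor of stem cells, had 224 and 139 in MPP against 1426 and 1365 in ST.HSC (−2.97, SE 1.03, adjusted p = 0.114). In neither gene did the groups overlap. Slamf1, which marks long-term stem cells and is low in later cells, had 45.6 and 34.2 in MPP against 16.0 and 19.8 in ST.HSC (1.10, adjusted p = 0.350). Cd34, a sialomucin gained when long-term cells become short-term cells, had 6036 and 7433 in MPP against 7641 and 9306 in ST.HSC (−0.33, adjusted p = 0.823). Both MPP values lay below both ST.HSC values, and the difference did not pass.

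Stem cell regulators were lower as a group. Of 30 genes tested, 6 fell in MPP (against 1.01% of all genes) and 0 rose. The median log2 fold change was −1.06, and in 22 of the 30 both MPP libraries lay below both ST.HSC libraries (against 26.7% of all genes). The list added up to 13788 and 13815 normalised counts in MPP libraries and to 29607 and 35996 in ST.HSC libraries. The calls were less steady than those of the cell cycle genes. With these 4 libraries fitted alone 15 of the 30 fell, and with DESeq2 12 fell. When any 1 library was left out 1 or 2 of the 30 fell, and 13 fell with a pseudocount of 10 and 9 with edgeR.

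Mllt3, a chromatin reader that maintains stem cells, fell with the smallest p of the list. It had 161 and 118 in MPP libraries against 550.5 and 486 in ST.HSC libraries (log2 fold change −1.90, SE 0.27, adjusted p = 3.59e-05 in limma). Lmo2, an adaptor in the stem cell transcription factor complex, had 4620.2 and 4048 in MPP against 8433 and 10713 in ST.HSC (−1.14, SE 0.23, adjusted p = 0.00302). The groups overlapped in neither gene. Mllt3 kept its call without any 1 library, and Lmo2 lost its own without MPP replicate 2 or ST.HSC replicate 2 (adjusted p = 0.0894). Hoxb5, a homeobox factor of long-term stem cells, had 7.84 and 12.8 in MPP against 71.4 and 81.5 in ST.HSC (−2.81, adjusted p = 0.0172). Ndn, an imprinted gene linked to quiescence, had 29.9 and 26.6 in MPP against 171 and 268 in ST.HSC (−2.88, adjusted p = 0.0161). Mmrn1, a secreted protein of stem cells and platelets, had 85.2 and 49.9 in MPP against 799 and 449 in ST.HSC (−3.18, adjusted p = 0.0472). Hoxb5, Ndn and Mmrn1 lost their call without any 1 of the 4 libraries, with adjusted p values of up to 0.314.

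Several regulators much studied in stem cells did not pass although their groups stood apart. Their standard errors took in the spread of all 32 atlas input libraries. Mecom, which encodes EVI1, had 128 and 169 in MPP libraries against 571 and 454 in ST.HSC libraries (log2 fold change −1.78, SE 0.77, adjusted p = 0.263 in limma). Hlf, a stem cell transcription factor, had 444 and 391 in MPP against 1625 and 1225 in ST.HSC (−1.76, SE 0.90, adjusted p = 0.396). Gata2 had 209.7 and 418 in MPP against 337 and 609 in ST.HSC (−0.61, adjusted p = 0.811), and its groups overlapped. Of 8 imprinted genes, Grb10 and Ndn fell (against 1.01% of all genes) and 0 rose. Grb10, an adaptor that dampens growth signals, had 16.7 and 24.2 in MPP against 211 and 183 in ST.HSC (−3.23, SE 0.68, adjusted p = 0.00361), a call lost without MPP replicate 1 (0.0683) and without ST.HSC replicate 1.

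**Figure D2:**
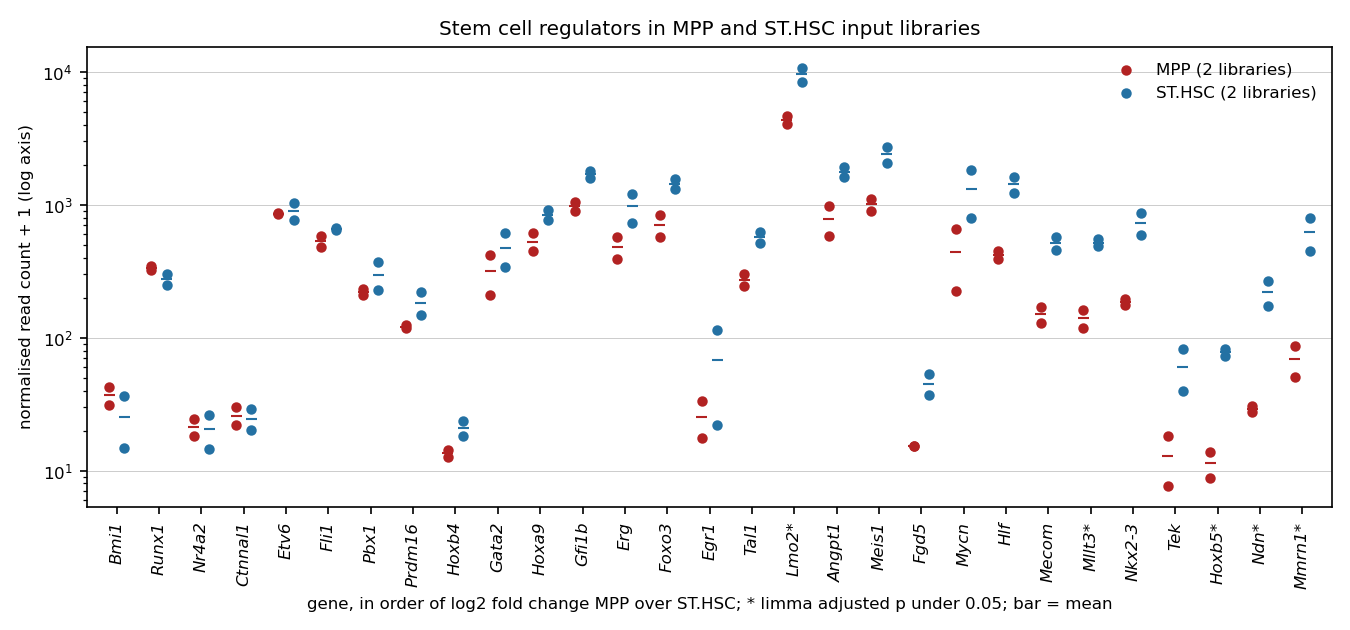
Normalised read counts plus 1 (log axis) of 29 of the 30 stem cell regulators in the 2 MPP (red) and 2 ST.HSC (blue) atlas input libraries, each point a library and each bar the mean of its group, with genes in falling order of log2 fold change and those past the threshold starred. The red points lie below the blue ones for 21 of the 29 genes, mostly those on the right.

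The strongest falls over the whole table, by a rule of size, lay mostly outside these lists. Tinagl1, a secreted matrix protein, had 33.3 and 43.2 in MPP libraries against 543 and 672 in ST.HSC libraries (log2 fold change −3.96, SE 0.55, adjusted p = 2.76e-05 in limma). Efna1, a ligand of Eph receptors, had 2.45 and 7.12 in MPP against 143 and 110.5 in ST.HSC (−4.58, SE 0.79, adjusted p = 0.000460). Both calls held when any 1 library was left out, and neither pair of groups overlapped. Tgm2, a transglutaminase that crosslinks proteins, had 19.6 and 32.8 in MPP against 220.4 and 224 in ST.HSC (−3.08, SE 0.67, adjusted p = 0.00491), which became 0.0942 without MPP replicate 1 and also failed without ST.HSC replicate 2. Foxa3, a forkhead factor, had 0.980 and 22.3 in MPP against 80.2 and 185 in ST.HSC (−4.18, adjusted p = 0.00635), which became 0.323 without MPP replicate 1. It also failed without ST.HSC replicate 2. Among the other genes the rule named, Grb10 and Mmrn1 are given above. Upp1, Apbb1, Phlda2, Tmem246 and Gstt1 had log2 fold changes between −3.30 and −3.02. They lost their calls without any 1 library, and their log2 fold changes then lay between −3.91 and −2.65.

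Genes of the granulocyte and monocyte branch were higher in MPP. Of 15 genes of the granulocyte monocyte progenitor list, 6 rose (against 3.5% of all genes) and 0 fell, with a median log2 fold change of 1.10, and 4 rose without ST.HSC replicate 1. Mpo, the myeloperoxidase of primary granules, had 34379 and 32494 in MPP libraries against 1416 and 6786 in ST.HSC libraries (log2 fold change 3.43, SE 0.61, adjusted p = 0.000648 in limma). Elane, neutrophil elastase, had 15757 and 9330.5 in MPP against 287 and 2619.8 in ST.HSC (3.80, SE 0.68, adjusted p = 0.000829), which became 0.0559 without ST.HSC replicate 1. Mpo lost its call without that library too (0.0632). The groups did not overlap, but ST.HSC replicate 2 held several times more of both transcripts than replicate 1. Irf8, a transcription factor of monocytes and dendritic cells, had 3347 and 3678 in MPP against 204 and 287 in ST.HSC (3.85, SE 0.47, adjusted p = 5.76e-06). Csf1r, the receptor of macrophage colony-stimulating factor, had 141 and 163 in MPP against 17.6 and 3.68 in ST.HSC (4.03, SE 0.50, adjusted p = 6.44e-06). Spi1, which encodes the myeloid factor PU.1, had 3166 and 2787 in MPP against 2729 and 3799 in ST.HSC (−0.12, adjusted p = 0.956), with overlapping groups.

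Genes of early lymphoid priming were higher as well. Of 20 genes tested, 10 rose (against 3.5% of all genes) and 0 fell, with a median log2 fold change of 1.35. The fold change was above 0 in 18 of the 20 (against 45.8% of all genes). In the second wild-type set 12 of 18 were above 0 (against 45.9% of all genes), with a median of 0.40. In the atlas 5 rose without MPP replicate 2, 6 without ST.HSC replicate 1, 7 without ST.HSC replicate 2 and 8 without MPP replicate 1. Dntt, the terminal transferase that adds bases at immunoglobulin and T cell receptor joints, had 13962 and 9473 in MPP libraries against 551 and 874 in ST.HSC libraries (4.05, SE 0.50, adjusted p = 6.44e-06 in limma). Rag2, a subunit of the recombinase, had 139 and 152 in MPP against 5.69 and 13.3 in ST.HSC (3.90, SE 0.85, adjusted p = 0.00523). Neither gene's groups overlapped. Rag1, the other subunit, had 15.2 and 10.9 in MPP and was at 0 in both ST.HSC libraries, at least 8.90-fold higher against a floor of 3 reads per ST.HSC library. Satb1, a chromatin organiser of early lymphoid cells, had 840.2 and 996 in MPP against 308 and 353 in ST.HSC (1.47, SE 0.33, adjusted p = 0.00619). Rag2 and Satb1 lost their calls without MPP replicate 2 or ST.HSC replicate 1, with an adjusted p of up to 0.104, and Dntt and Rag1 kept theirs without any 1 library.

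Lists of mature and other lineages moved with these groups. Some lists share called members, so their counts are not separate readings. Pax5 and Ebf1 count for lymphoid priming and for B cells, and Irf8 for granulocyte monocyte progenitors and for dendritic cells. Csf1r counts for granulocyte monocyte progenitors and for monocytes, Irf4 for dendritic and plasma cells, and Cd9 for the sorting gates and for megakaryocytes. Of 12 B cell genes, 9 rose in MPP (against 3.5% of all genes) and 0 fell, and the list added up to 111720 and 146390 normalised counts in MPP libraries against 5541 and 8094 in ST.HSC libraries. The number that rose was 5 without MPP replicate 1, 6 without MPP replicate 2 or ST.HSC replicate 1, and 7 without ST.HSC replicate 2. Ighm, the immunoglobulin mu chain, had 108500 and 143780 of these in MPP against 3668 and 6379 in ST.HSC (log2 fold change 4.69, SE 0.79, adjusted p = 0.000485 in limma). Cd79a, the signalling chain of the B cell receptor, had 408 and 433 in MPP against 3.62 and 10.1 in ST.HSC (5.88, SE 0.66, adjusted p = 2.71e-06). Both held without any 1 library, and neither overlapped. Igll1, the surrogate light chain of pre-B cells, had 225 and 229 in MPP against 0 and 0.460, which is 1 read over both ST.HSC libraries, a ratio of 930 with an exact 95% counting interval of 167 to 36760. Pax5, the B lineage factor, was at 0 in both ST.HSC libraries and had 28.9 and 20.9 in MPP, at least 17.0-fold higher, but its call was lost without any 1 library. Ms4a1, which encodes CD20, had 8.33 and 7.60 in MPP against 6.73 and 3.68 in ST.HSC. These values were low, though above the floor of 3 reads, which is 1.45 in MPP and 1.47 in ST.HSC.

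The 246 immunoglobulin genes tested, of 393 in the table, held the largest fold changes of all. Of them, 98 rose (against 3.5% of all genes) and 0 fell, and 123 had reads in MPP and were at 0 in both ST.HSC libraries. The number that rose was 59 without ST.HSC replicate 2, 63 without ST.HSC replicate 1, 67 without MPP replicate 2 and 83 without MPP replicate 1. Their sums were 274012 and 382030 in MPP libraries, or 2.92% and 4.69% of all normalised counts, against 6701 and 9515, or 0.0778% and 0.105%, in ST.HSC libraries. Igkv4-70, a kappa variable segment, had 1069 and 1471 in MPP and was at 0 in both ST.HSC libraries, at least 866-fold higher. Iglc2, a lambda constant segment, had 3436 and 4402 in MPP against 2.59 and 4.14 in ST.HSC (log2 fold change 9.82, SE 0.92, adjusted p = 7.48e-07 in limma). The rule that named the 12 highest genes returned immunoglobulin genes alone. Single segments are near copies of each other, so reads may be divided between them and single values are uncertain, which the sum is less subject to.

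For comparison on the same scale, the immunoglobulin sums were 1869320 and 2118840 in B_cell libraries, 131663 and 42629 in LMPP libraries and 332 and 7312 in LT.HSC libraries. The LT.HSC replicates were themselves far apart. With the immunoglobulin genes removed from the table, 487 genes rose in MPP and 164 fell.

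**Figure D3:**
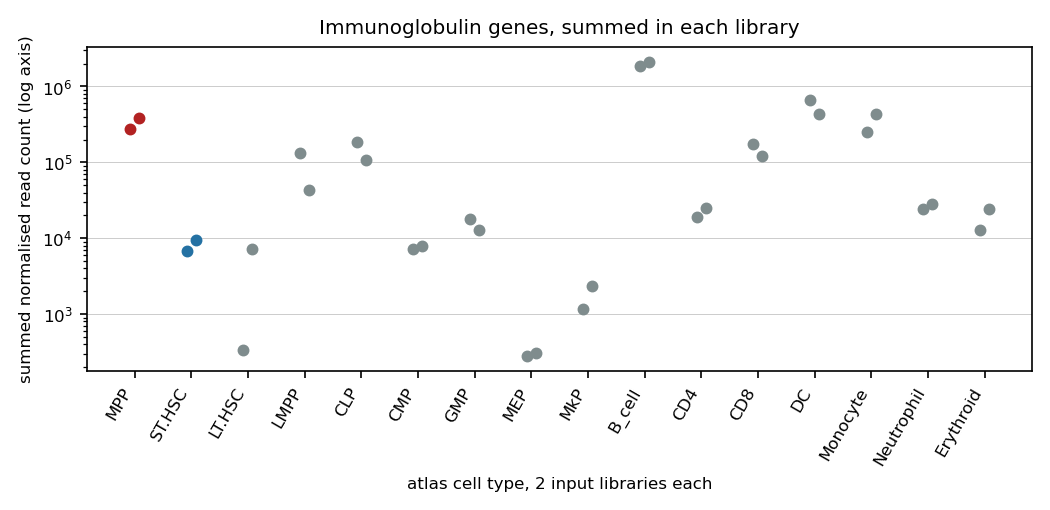
Summed normalised read counts of the immunoglobulin genes (log axis) in each of the 2 input libraries of the 16 atlas cell types, with MPP in red and ST.HSC in blue. The MPP libraries, at 274012 and 382030, lie above both ST.HSC libraries, at 6701 and 9515, and below both B_cell libraries.

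Other lineage lists that a stem and progenitor gate could hold gave a mixed picture. Of 10 mast cell and basophil genes, 5 rose in MPP (against 3.5% of all genes) and 0 fell, with list sums of 10115 and 6817 in MPP libraries against 308 and 211 in ST.HSC libraries. Prss34, a basophil protease on chr17:25298394-25300168, had 6804 and 5428 in MPP against 11.4 and 29.0 in ST.HSC (log2 fold change 8.30, SE 1.13, adjusted p = 0.000106 in limma). Mcpt8, another basophil protease, had 1663 and 730.5 in MPP against 13.5 and 7.82 in ST.HSC (6.61, SE 0.73, adjusted p = 3.71e-06). Both groups were well apart. Of 14 T and NK cell genes, 8 rose (against 3.5%) and 0 fell, with sums of 4122 and 3872 in MPP against 2476 and 3184 in ST.HSC. Cd3g, a chain of the T cell receptor complex, had 118 and 63.6 in MPP against 0.517 and 4.60 in ST.HSC, and Zap70, a kinase of that receptor, had 113 and 147 in MPP against 2.07 and 4.14 in ST.HSC. Their log2 fold changes were 4.91 and 5.03. In 11 of the 14 list members both MPP libraries lay above both ST.HSC libraries (against 22.6% of all genes). In 2 both lay below (against 26.7%). Of 169 T cell receptor genes tested, only 5 rose, near the 3.5% of all genes.

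Of 12 dendritic cell genes, 7 rose (against 3.5% of all genes) and 0 fell, with sums of 6709 and 7367 in MPP libraries against 2359 and 2335 in ST.HSC libraries. Without MPP replicate 2, 4 rose, and 5 did without any other of the 4 libraries. Of 11 monocyte and macrophage genes, 5 rose (against 3.5%) and 0 fell, with sums of 14547 and 6930.1 in MPP against 10120.0 and 9064 in ST.HSC, so that these sums overlapped. Ly6c2, an antigen of monocytes and their precursors, had 1998 and 1157 in MPP against 50.7 and 96.7 in ST.HSC (log2 fold change 4.42, SE 0.49, adjusted p = 1.62e-06 in limma). Of 12 neutrophil genes 0 passed the threshold in either direction, with sums of 1494 and 620 in MPP against 1717 and 1738 in ST.HSC. Lyz2, S100a8 and S100a9, abundant in mature phagocytes, had log2 fold changes of −0.37, −0.29 and −1.07, none past the threshold. Of 11 stromal and endothelial genes 0 passed, with sums of 686 and 767 in MPP against 861 and 742 in ST.HSC, and the fibroblast gene Col3a1 was at 0 in all 4 libraries. The part of mature or other cells in the differences above was not tested.

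Megakaryocyte and erythroid genes were mostly lower in the atlas, and less so or not in the second set. Of 18 megakaryocyte genes, 3 fell in MPP (against 1.01% of all genes), Nfe2 and Cd9 among them, and 0 rose (median log2 fold change −1.16), with sums of 6787 and 6348 in MPP libraries against 17975 and 22584 in ST.HSC libraries. Nfe2, a transcription factor of platelet formation, had 4186 and 3616 in MPP against 11203 and 12173 in ST.HSC (−1.59, SE 0.37, adjusted p = 0.00855 in limma). Its groups did not overlap, and it kept its call only without MPP replicate 1. Pf4 and Ppbp, which encode platelet chemokines, had log2 fold changes of −1.75 and −3.11 and did not pass. Of 19 erythroid genes, Hbb-bt and Car2 fell (against 1.01% of all genes) and Tfrc rose (against 3.5%), with a median of −0.57. Car2, a carbonic anhydrase, had 11344 and 5301 in MPP against 25899 and 22845 in ST.HSC (−1.65, SE 0.35, adjusted p = 0.00454), which became 0.201 without MPP replicate 2. It also failed without ST.HSC replicate 1. Hbb-bt, a haemoglobin chain, kept its call only without MPP replicate 1 (adjusted p of up to 0.437), and Tfrc, the transferrin receptor, only without ST.HSC replicate 1 (up to 0.155). With a block on the replicate number 1 erythroid gene fell. In the second set the erythroid median was 0.19, with 12 of 19 above 0 (against 45.9% of all genes). The erythroid sums there were 12946 and 14968 in MPP against 9080 and 30336 in ST.HSC, which overlapped. The megakaryocyte median there was −0.27, with 6 of 18 above 0 (against 45.9% of all genes). The 3 megakaryocyte calls became 0 or 1 when any 1 library was left out.

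The highest genes outside the immunoglobulin genes, picked after their values were seen, belonged to several lineages. After Prss34 came Igll1, then Ly6d, a surface antigen of B-primed lymphoid progenitors, with 2614 and 2831 in MPP libraries against 10.9 and 32.2 in ST.HSC libraries (log2 fold change 7.10, SE 1.24, adjusted p = 0.00146 in limma). Jchain, which joins antibody chains, had 8638 and 9562 in MPP against 158 and 45.1 in ST.HSC (6.73, SE 0.85, adjusted p = 2.41e-05). Cox6a2, a subunit of cytochrome c oxidase, had 545 and 512 in MPP against 2.59 and 17.0 in ST.HSC (6.04, SE 0.62, adjusted p = 6.41e-07). None of the groups overlapped. Ly86, the partner of the receptor RP105 on B and myeloid cells, had 332 and 275 in MPP against 3.10 and 7.82 in ST.HSC (5.65, SE 0.62, adjusted p = 1.99e-06). These 4 calls held without any 1 library. Prg2, the eosinophil major basic protein, had 3360 and 582 in MPP against 16.0 and 18.9 in ST.HSC (6.25, adjusted p = 0.0118), and failed without MPP replicate 1 (0.183), ST.HSC replicate 1 or ST.HSC replicate 2.

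Other lists held 1 or 2 calls each, which says little of a list when 3.5% of all genes rose. Of 18 chromatin modifiers, Dnmt1 and Ezh2 rose (against 3.5% of all genes) and 0 fell. Dnmt1, the maintenance DNA methyltransferase, had 1391 and 1409 in MPP libraries against 453 and 365 in ST.HSC libraries (log2 fold change 1.78, SE 0.31, adjusted p = 0.000485 in limma). Ezh2, the Polycomb methyltransferase, had 1964 and 1048 in MPP against 574 and 688 in ST.HSC (1.19, SE 0.34, adjusted p = 0.0400), which became 0.539 without MPP replicate 1 and also failed without either ST.HSC library. Dnmt1 held without any 1 library, and neither pair of groups overlapped. Of 14 homing and adhesion receptors Itgal rose, the alpha chain of LFA-1, with 375 and 440.3 in MPP against 97.8 and 84.7 in ST.HSC (2.15, SE 0.38, adjusted p = 0.000652). Of 30 interferon response genes Ifi27l2a rose (1.87) and Ddx58 fell (−1.32), or 3.33% of the list each way, against 3.5% and 1.01% of all genes, the second losing its call without MPP replicate 1, MPP replicate 2 or ST.HSC replicate 1. Of 23 genes of glycolysis and hypoxia Ldhb fell, a subunit of lactate dehydrogenase (−1.50), which failed without MPP replicate 2 or ST.HSC replicate 2. No member of the lists of TGF-beta and SMAD, MHC class II, stromal and endothelial, or immediate early and heat shock genes passed.

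**Figure D4:**
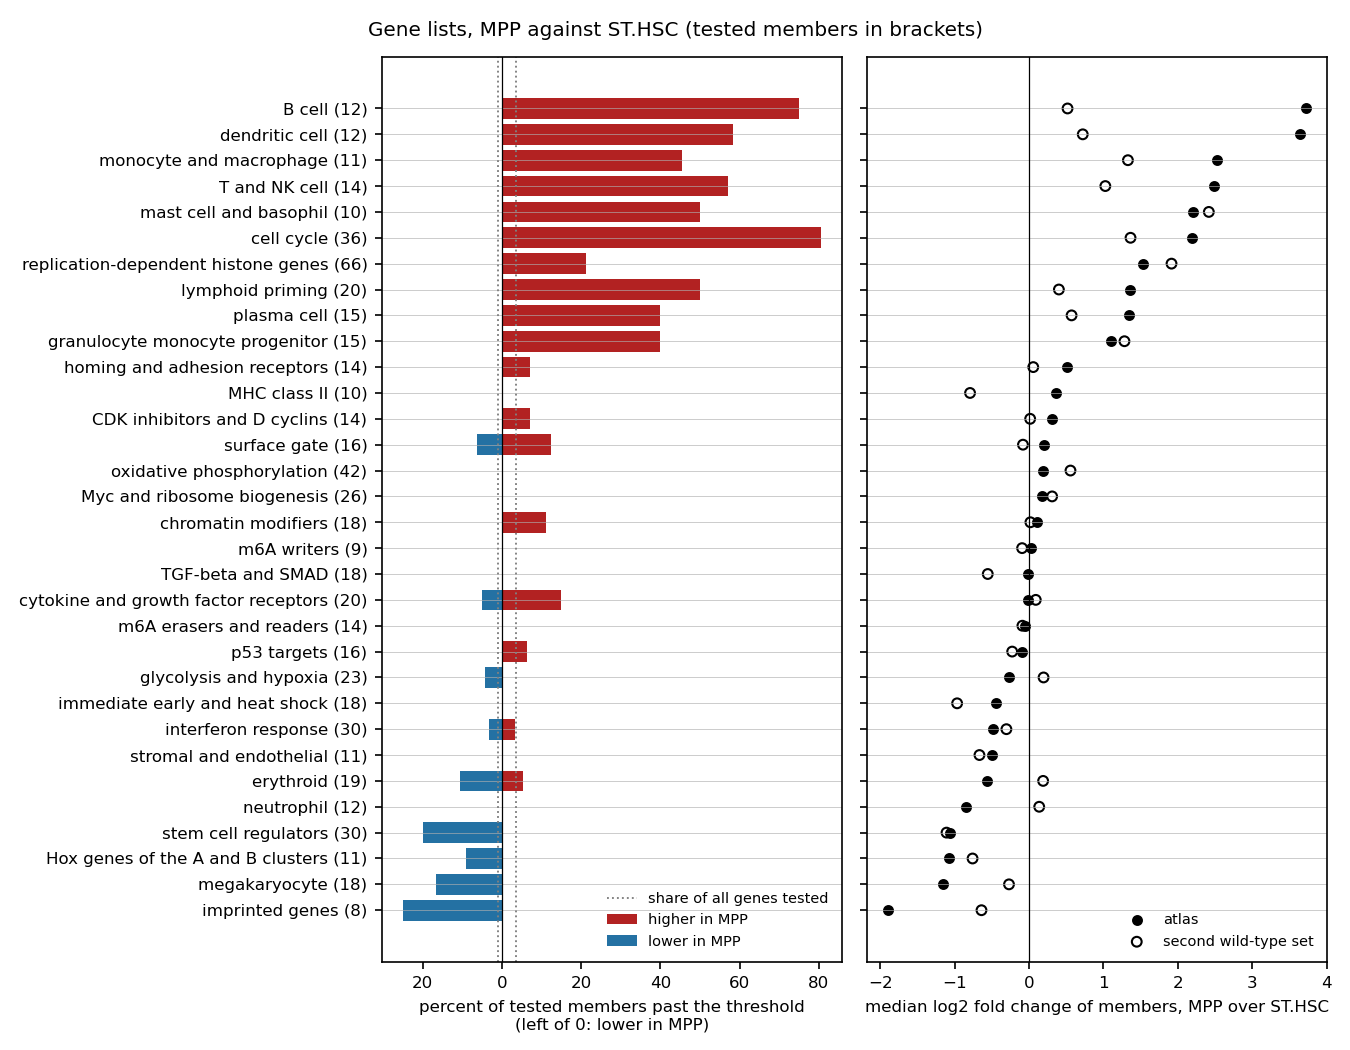
Left, percent of the tested members of each gene list that were higher (red, to the right) or lower (blue, to the left) in MPP at an adjusted p under 0.05, with dotted lines at the shares of all genes tested. Right, median log2 fold change of the members, MPP over ST.HSC, in the atlas (filled) and in the second wild-type set (open). The B cell median is 3.72 in the atlas and 0.52 in the second set, while the stem cell regulators have −1.06 and −1.11.

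The wild-type libraries of the second set, which took no part in the calls, were read for the same genes. Their input depth was 8605098 and 6374039 reads for MPP and 19463312 and 17334294 for ST.HSC, and replicates correlated at 0.906 and 0.891. Fitted alone, this set called 1 gene higher (0.00665% of 15030), the spindle gene Knstrn, and 0 lower in limma. At an unadjusted p under 0.05 it had 480 higher (3.19%) and 337 lower (2.24%), and edgeR on its recovered reads called 0 in either direction. Of the 600 genes that rose in the atlas, 514 were measured there and 472 (91.8%) were higher in MPP, against 45.9% of all genes. In 339 of the 514 (66.0%) both MPP libraries lay above both ST.HSC libraries, against 17.2% of all genes. Of the 174 that fell, 164 were measured, 150 (91.5%) were lower in MPP and 109 (66.5%) had both MPP libraries below both ST.HSC libraries, against 18.6% of all genes. Of the 98 immunoglobulin genes that rose, only 45 were measured there, and 37 (82.2%) were higher in MPP. In 15 of the 45 (33.3%) both MPP libraries lay above both ST.HSC libraries. The other genes that rose were higher in 435 of 469 (92.8%), with both MPP libraries above both ST.HSC libraries in 324 (69.1%).

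Gene groups differed in how closely the second set followed the atlas. The cell cycle list was above 0 in 35 of 36 members (against 45.9% of all genes), with a median log2 fold change of 1.36. Both MPP libraries lay above both ST.HSC libraries in 25 of the 36 (against 17.2% of all genes). Mki67 had 188 and 324 in MPP libraries against 40.1 and 39.5 in ST.HSC libraries of that set. The stem cell regulators were below 0 in 28 of 30, with a median of −1.11. In 17 of the 30 both MPP libraries lay below both ST.HSC libraries (against 18.6% of all genes). Procr had 139.5 and 266 in MPP against 1247 and 937 in ST.HSC, without overlap. Cd48 had 1024 and 2010.3 in MPP against 188 and 159.8 in ST.HSC, and Il7r had 31.3 and 57.5 in MPP against 0.697 and 3.22 in ST.HSC. The immunoglobulin sum was 46374 and 6771 in MPP against 160.0 and 1598 in ST.HSC, and Prss34 had 814 and 300.1 in MPP against 0.349 and 10.9 in ST.HSC. Cd79a had 99.6 and 20.3 in MPP against 17.8 and 4.43 in ST.HSC. The oxidative phosphorylation genes were above 0 in 41 of 42 in the second set (against 45.9% of all genes), with a median of 0.56. They were above 0 in 33 of 42 in the atlas (against 45.8% of all genes), with the median of 0.19 given above.

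**Figure D5:**
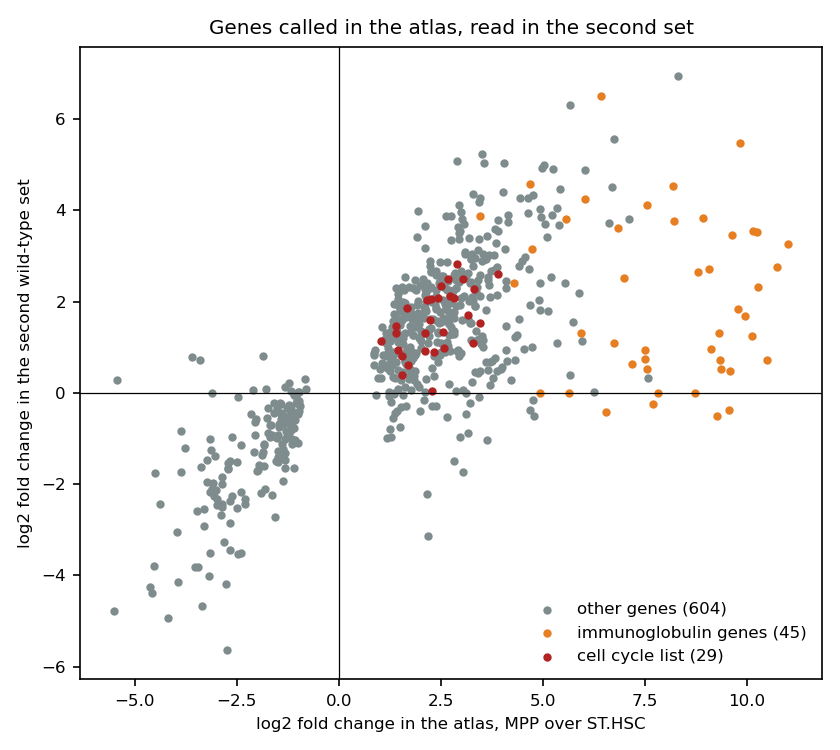
Log2 fold change, MPP over ST.HSC, of the 678 genes called in the atlas and measured in the second wild-type set, with the atlas on the horizontal axis and the second set on the vertical axis. Cell cycle genes (29, red) and other genes (604, grey) lie mostly in the quadrants of equal sign, and several immunoglobulin genes (45, orange) with large atlas values lie near 0 on the vertical axis.

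The m6A-precipitated libraries, on their own, carried the expression difference. Of 19728 genes tested, 316 (1.6%) were higher in MPP and 27 (0.137%) were lower at an adjusted p under 0.05 in limma, and edgeR on the counts called 214 and 7. Without MPP replicate 1 there were 154 and 12, without MPP replicate 2 there were 121 and 11, without ST.HSC replicate 1 there were 133 and 9, and without ST.HSC replicate 2 there were 315 and 91. Of the cell cycle genes, 24 of 36 were higher and 0 lower. Mki67 had 4683 and 5561 reads in precipitated MPP libraries against 782 and 765 in precipitated ST.HSC libraries. The precipitated and input libraries may come from the same RNA, so this is not a separate reading of expression.

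The question the precipitation adds is whether the recovery of a transcript relative to its input differed between MPP and ST.HSC. It was taken as the difference between cell types of log2 precipitated minus log2 input, each table scaled on its own, so a uniform shift of methylation over all genes cannot be seen. Of 16639 genes, 1 (0.00601%) was higher in MPP and 0 were lower at an adjusted p under 0.05 in limma. At an unadjusted p under 0.05 there were 299 higher (1.8%) and 125 lower (0.751%), and edgeR on the reads called 0 in either direction. The gene was Rps13-ps2, a ribosomal pseudogene with a near-identical parent, with 433 and 448 precipitated reads in MPP libraries against 0 and 0 in ST.HSC libraries, and input values of 0 and 0 in MPP against 0 and 102 in ST.HSC. Such counts may move between copies, and no fold is given. Without precipitated ST.HSC replicate 2, 36 genes were higher and 7 lower, whereas leaving out any other of the 8 libraries gave 0 or 1 in each direction.

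The precision of this comparison was limited. The standard error of the log2 difference had a median of 1.07 over all genes and of 0.726 over genes with an input mean of at least 50, and the log2 differences ranged from −1.39 at the 5th percentile to 1.88 at the 95th. Precipitated ST.HSC replicates correlated at 0.901, against 0.950 for MPP. Rogdi, a gene of poorly known function, had the fourth smallest p, with 387 and 355 precipitated reads in MPP against 18 and 46 in ST.HSC, and input values of 897 and 822 in MPP against 408 and 540 in ST.HSC. Its log2 difference was 2.57 (SE 0.58, adjusted p = 0.292 in limma) and did not pass.

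No gene called in expression passed the test of recovery in either direction. Mki67 had a log2 precipitated minus input value of 1.67 in MPP and 3.03 in ST.HSC, a difference of −1.36 (SE 0.55). Cd48 had 0.83 in MPP and −0.39 in ST.HSC, a difference of 1.22 (SE 0.69). Mllt3 had 1.49 in MPP and 1.51 in ST.HSC, a difference of −0.02 (SE 0.92). None passed, with an adjusted p of 1 for all 3 in limma. The median difference was 0.07 for the cell cycle list, −0.05 for the stem cell regulators and 0.00 for the immunoglobulin genes, against 0.06 over all genes. Many immunoglobulin segments had no reads in the ST.HSC input libraries, so the value of 0.00, over 225 genes, does not show an unchanged recovery. Over the 95 measured immunoglobulin genes that were higher in expression the median was −0.46. The median difference was 0.57 over the 168 measured genes that were lower in expression in MPP and −0.14 over the 594 that were higher, each opposite in sign to the expression change. The recovery is computed with the same input libraries as those calls, so these medians are no separate reading, and the part of that shared input was not tested. In the second set 0 of 14464 genes passed in either direction in limma, with 724 higher (5.01%) and 135 lower (0.933%) at an unadjusted p under 0.05 and 61.1% of genes above 0. There edgeR on the reads called 0 higher and 51 lower, and limma without precipitated ST.HSC replicate 2 called 612 higher and 134 lower. In that set 10 genes took 75.8% of the counts of precipitated ST.HSC replicate 1. Its precipitated ST.HSC replicates correlated at 0.651. The median standard error of recovery was 2.00 there, against 1.07 in the atlas, so its lack of limma calls says little.

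The genes that write, erase and read m6A showed no call in expression. Of 9 genes of the methyltransferase complex and of 14 erasers and readers 0 passed in either direction, with medians of 0.03 and −0.06. Mettl3, the catalytic subunit, had 496 and 562 in MPP libraries against 454 and 587 in ST.HSC libraries (log2 fold change 0.03, SE 0.47, adjusted p = 1 in limma), with overlapping groups. Wtap, the subunit that holds the complex in nuclear speckles, had 1434 and 2436 in MPP against 2760.2 and 2581 in ST.HSC (−0.51, adjusted p = 0.741), both MPP values lying below both ST.HSC values. Igf2bp2, a reader that stabilises bound transcripts, had 11.8 and 3.32 in MPP against 10.9 and 8.74 in ST.HSC (−0.53, adjusted p = 0.831), with overlapping groups.

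Newly made RNA was read as the percent of T-to-C conversion per gene after 3 h of labelling. Its median over 13909 genes was 1.59% and 1.71% in the MPP libraries against 0.802% and 0.883% in the ST.HSC libraries, and 85.8% of genes had a higher fitted value in MPP. The median log2 difference was 0.90 on the scale of log2(percent + 0.1). The depth behind these ratios is unknown, and no correction for background is stated. In limma 0 genes passed in either direction, with 871 higher (6.26%) and 80 lower (0.575%) at an unadjusted p under 0.05. Replicates correlated at 0.701 for MPP and 0.511 for ST.HSC. Of the cell cycle genes 28 of 35 were above 0, with a median of 0.59, and of the stem cell regulators 26 of 28, with a median of 0.85, both below the median of all genes. Mki67 had 2.18% and 2.43% in MPP against 1.21% and 1.85% in ST.HSC. Mllt3, whose level was lower in MPP, had 2.60% and 2.11% in MPP against 1.08% and 1.15% in ST.HSC.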

How the data were processed

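Input and m6A-precipitated RNA libraries of wild-type MPP and ST.HSC were compared (2 of each kind, 8 samples). For the input tables, the authors deposited normalised counts per gene, a signal in which each whole read count is divided by a library size factor. The deposited precipitated table of the atlas holds raw counts, and that of the second set holds estimated counts, rounded here. Newly made RNA was deposited as a fraction of T-to-C conversion per gene, multiplied here to percent. Per the submitters' processing notes, fastp, Trimmomatic, kallisto and GRCm38 were used. No version or annotation is named there, nor whether counting used strand. Each table of counts has 36102 genes.

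Whole reads came back for 100% of input values (tolerance 0.1 read). The main test was limma 3.58.1 (trend, robust) in R 4.3.3 on log2(value + 1), with genes at 10 or more in at least 2 libraries, a mean for each cell type over the 32 atlas input libraries, Benjamini-Hochberg adjustment and a threshold of 0.05. For recovery in the precipitate, counts were scaled by TMM within each table and 64 libraries were fitted. Ratios of new RNA were tested as log2(percent + 0.1), keeping genes that exceeded 0 in 6 or more of the libraries. Alternatives were edgeR 4.0.16 and DESeq2 1.42.0 on reads, another pseudocount, filter or scaling, a block on replicate number, and each library left out. The steps were tested on simulated data.

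Named genes were the 12 largest called fold changes in each direction whose mean reached 50 and whose groups did not overlap, leaving out Gm and Rik models, up to 4 members of each list in each direction, and a fixed set of stem cell genes. Other named genes, such as Mllt3, Lmo2, Cdk1, Mpo, Rag2 and Satb1, were picked from the lists after their values were seen. The values of 2 genes that the rule or a list named are not reported here. The members and lists were chosen with earlier results of these data known. Genes were placed by symbol in RefSeq GRCm38.p6 (546 of 617 matched). Counting intervals and floors (3 reads) cover counting error only.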

Additional observations from a re-analysis of the deposited data

Results flagged for a closer look

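Cd34 had opposite directions in the 2 sets of wild-type libraries. In the atlas it had normalised counts of 6036 and 7433 in MPP libraries against 7641 and 9306 in ST.HSC libraries, a log2 fold change of −0.33. In the second set it had 11707 and 11498 in MPP against 6129.9 and 10130 in ST.HSC, a log2 difference of 0.558. All 4 MPP values stood on one side of their ST.HSC values in each set, and the difference between the sets was not tested. Neither value passed the threshold in limma.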

How the results depend on the processing

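Of 82 named genes past the threshold in atlas expression, 49 kept their call in every setting, 51 when each library was left out and 69 under the other settings in which they could be tested. With the immunoglobulin genes removed, 67 of the 82 kept their call, and the named immunoglobulin genes could not be tested. With each library left out, the atlas gave 362 to 392 higher and 38 to 66 lower genes. Other settings gave 461 (pseudocount 10), 594 (only the 4 libraries) and 521 (DESeq2) lower genes. For recovery in the precipitate, no filter gave 4 higher and 8 lower, total count scaling 2 higher, pseudocount 10 gave 1 lower, and the 8 libraries alone and edgeR gave 0 higher, with 0 to 36 higher and 0 to 7 lower when each library was left out. Precipitated levels gave 121 to 315 higher and 9 to 91 lower genes with each library left out, 78 lower with pseudocount 10 and 7 lower with edgeR. Second-set expression gave 8 higher and 5 lower (pseudocount 10), 23 and 11 (no filter), 0 higher with its 4 libraries alone and with edgeR, and 0 to 6 higher and 0 to 3 lower with each library left out. Second-set recovery gave 51 lower with edgeR, and 0 to 612 higher and 0 to 134 lower with each library left out. New RNA gave 5 higher with a pseudocount of 1 percent, and 21 higher and 6 lower for genes above 0 in at least 1 library. The share of higher calls with the same sign in the second set was 86.7% with no filter and 83.2% to 90.1% with each library left out. The cause of these moves was not tested, beyond fewer libraries or another set of genes tested.

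With a block on the replicate number, 605 genes were higher and 179 lower in atlas expression, 1 and 0 in recovery, and 3 higher in second-set expression. The numbers name libraries only: same-numbered deviations correlated at 0.271 in atlas inputs, 0.144 in precipitated libraries, 0.203 in second-set inputs, 0.0973 in second-set precipitated libraries and −0.0201 in new RNA, over 2 pairs each. With each library left out, the log2 fold change of 4 genes not past the threshold changed sign: Kit ranged from −0.72 to 0.0044 (without ST.HSC replicate 1), Myc from −0.86 to 0.10 (without ST.HSC replicate 2, and 0.09 without MPP replicate 1), Mettl3 from −0.15 (without ST.HSC replicate 1, and −0.06 without MPP replicate 2) to 0.22, and Igf2bp2 from −1.31 to 0.25 (without MPP replicate 2). In every fit over a whole table, with or without a library left out, the spread was pooled over all its cell types. A group left with 1 library adds nothing to that spread.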

Other observations

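Replication-dependent histone genes, whose transcripts are made in the S phase, were higher in MPP, in a list added after values were seen. Of 66 tested, 14 rose (against 3.5% of all genes) and 0 fell, and in 43 both MPP libraries lay above both ST.HSC libraries (against 22.6% of all genes). Their median log2 fold change was 1.53, or 1.42 with genes at 0 in both ST.HSC libraries set to their bound, and 3 rose without MPP replicate 1, 7 without ST.HSC replicate 1, 8 without ST.HSC replicate 2 and 12 without MPP replicate 2. The list added up to 21142 and 15622 normalised counts in MPP libraries against 3893 and 4123 in ST.HSC libraries. Hist1h1b, a linker histone, had 1020.4 and 266 in MPP against 45.0 and 36.4 in ST.HSC (3.66, SE 0.53, adjusted p = 5.25e-05 in limma). In the second set 54 of 60 members were above 0 (against 45.9% of all genes), with a median of 1.92. These genes are close copies of each other, so single values are uncertain.

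Of 15 plasma cell genes, also added after values were seen, 6 rose (against 3.5% of all genes) and 0 fell, among them Jchain, Mzb1 and Tnfrsf17.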
